A study of Mus musculus with 1479 samples.

Results

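Among the 1479 single cells of mouse bladder in the series, 411 carry the label of cluster 7 (15.48% of all cells) or of cluster 8 (12.31%), and the cells of these 2 clusters were compared with each other. Both clusters are fibroblast clusters of the study, and a cell entered the comparison by its deposited cluster label alone. The cells came from adult male mice aged 10 to 20 weeks, from which dissociated bladder cells were sorted 1 per well into multiwell plates and sequenced as full-length cDNA by Smart-seq2. The mice belonged to 4 reporter lines and 1 line without a reporter. PdgfrbGFP mice carry a bacterial artificial chromosome with eGFP under the Pdgfrb promoter, PdgfraGFP mice a nuclear H2B-GFP knocked into Pdgfra, Cspg4dsRED mice DsRed under the Cspg4 (NG2) promoter and Acta2GFP mice GFP under the smooth muscle actin promoter. C57BL6 mice carried no reporter, and their cells were sorted by antibodies to PDGFRα and PDGFRβ. All sorts left out CD31-positive cells, and the Acta2GFP tissue was dissociated with added elastase. The labels name no treatment.

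The 2 clusters were compared only within cells of the same plate and line, which gave 7 groups. They held 9 cells of cluster 7 and 11 of cluster 8 in Acta2GFP, 36 and 18 in C57BL6, 11 and 10 in Cspg4dsRED, 31 and 19 in PdgfraGFP, and, on the 3 PdgfrbGFP plates, 79 and 51 (074s), 22 and 35 (515s) and 41 and 34 (881s). A further 4 cluster 8 cells of Cspg4dsRED had no cluster 7 cell beside them on their plate and stayed out. The labels name no mouse, so the 7 groups are separate sorts or plates, and the 3 PdgfrbGFP groups may share mice. The Acta2GFP cells were on the same plate as PdgfrbGFP 515s, so these 2 groups share a plate. No fit left out that plate as a whole. Cluster 7 made up 55.72% of the 411 cells, the 4 left-out cells included. Over the 7 groups its share ran from 38.6% (exact 95% interval 26 to 52.43%) in PdgfrbGFP 515s to 66.67% (52.53 to 78.91%) in C57BL6, and it describes captured cells, since the sorts differed.

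Fibroblasts are the cells that lay down and remodel the connective tissue between epithelium, muscle and vessels. They secrete fibrillar collagens, the small proteoglycans that space collagen fibrils, elastic fibre proteins and the enzymes that crosslink and trim them. They also act as a source of secreted signals, among them Wnt, BMP, FGF and IGF ligands and their soluble antagonists, which act on the epithelium, the muscle and the vessels next to them. In the bladder they occupy the lamina propria under the urothelium, the spaces within the detrusor muscle and the outer adventitia, and fibroblasts with high Pi16, Cd34 and Dpt are known from the adventitia of many organs.

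A cluster 7 cell had between 49532 and 1154202 reads on genes (median 231367) and a cluster 8 cell between 52679 and 1053139 (median 198156). Over the 7 groups the median number of genes detected was 4692 ± 1799 (SD, n = 7) in cluster 7 and 4532 ± 1781 in cluster 8. The median was higher in cluster 7 in 6 of 7 groups (exact sign-flip permutation test, two-sided, p = 0.1406, adjusted over 6 technical measures 0.1688). After each cell was thinned to 50000 reads the difference was 177.1 genes (p = 0.0469, adjusted 0.1406). Reads of the ERCC spike-in RNAs took 1.355% of reads in cluster 8 and 1.136% in cluster 7, and were higher in cluster 8 in 6 of 7 groups (exact permutation p = 0.0469, adjusted 0.1406). The smallest p that 7 pairs allow is 0.0156. The other 3 measures were the reads per cell, the mitochondrial share (1.39% in cluster 7 and 1.29% in cluster 8) and the number of mural (cluster 10) cells in the same row or column of the plate, and none of the 6 passed after adjustment. A single measure at the smallest p could not have passed this adjustment alone. The result therefore does not show that the clusters were alike in these measures.

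Both clusters carried the fibroblast marker list. Col1a1, the main chain of type I collagen, averaged 2947 ± 578 reads per 500000 gene reads of a cell in cluster 7 and 3035 ± 505 in cluster 8 (SD over 7 groups); this unit is used for all levels below. Pdgfra, the receptor that marks fibroblasts, averaged 243.1 ± 76.9 against 310.9 ± 103.6 (log2 fold change -0.44 ± 0.27, adjusted p = 0.738), so its level did not differ past the test. Of 13 fibroblast markers, all were tested and 1 was called, Serpinf1, which was higher in cluster 8. The summed level of the list was 19889 ± 2225 in cluster 7 and 21332 ± 2811 in cluster 8. Markers of immune cells summed to 1.1 to 15.2 and 1.42 to 35.4 over the groups, with Cd3e at 0 in both, and markers of urothelium to 0 to 75.05 and 0 to 42.1, so both stayed far below the fibroblast markers. Mural cell markers summed to 136.1 ± 104.5 in cluster 7 and 355 ± 223.8 in cluster 8, and were higher in cluster 8 in 6 of 7 groups. None of the 7 mural markers tested was called, and Abcc9, a potassium channel subunit of pericytes and some fibroblasts, had the largest difference in level (15.8 ± 24.2 against 140.7 ± 70.8; log2 fold change -4.49 ± 1.11, adjusted p = 0.0963).

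The comparison asked which genes separate the 2 fibroblast clusters in the same way on each plate and in each line. Reads were summed per cluster within each group, giving a pair of sums in each of the 7 groups with 1176846 to 26758560 reads, and tested with edgeR's quasi-likelihood test with the group as a block. Called genes are those that changed at least 2-fold with an adjusted p (Benjamini-Hochberg over all genes) under 0.05. Fold changes are log2, cluster 7 over cluster 8, so that a positive value is higher in cluster 7. Of 11373 genes tested 1.25% were called, 53 of them higher in cluster 7 (0.466%) and 89 higher in cluster 8 (0.783%). The clusters were drawn by the study from the same expression values, so a call says that a difference recurred across plates and lines, and is no independent evidence that the clusters differ. Fitted changes of 8-fold or more were found in 21 of the 53 and in 39 of the 89. Where a gene is said to lie at 3 levels in a cluster, these are the lowest, the median and the highest of its 7 group means. Of all called genes, 47 have an exon overlap with another annotated gene, to which part of their reads could belong. Among the named genes these are Penk, Thbs1, Pi16, Cd55, Fn1, Tspan8, Ackr1, Gm973, Cpne7, Svep1, Cp, Eln, Mfap4 and Gata5. The genes named below are the 15 protein-coding genes of largest fold change in each direction that moved alike in all 7 groups and reached a mean of 10 reads, the called or most abundant members of fixed lists, and a few genes of the study's text. Dpt, Lum, Prelp, Mfap5, Bmp4, Fgf10, Ier2, Dusp1, Klf4, Sema3c, Has1 and Dpp4 are list members that were picked for mention after their values were seen. All 7 groups had the same direction in 50 of the 53 and in 81 of the 89 genes. The level ranges of the 2 clusters over the 7 groups did not overlap for 23 of the 53 and 35 of the 89, and over all genes tested for 1.04%.

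Among the 53 genes higher in cluster 7 were 9 genes of the Ugt1a locus, UDP-glucuronosyltransferases that share their last exons, and counted as 1 they leave 45. The calls depended on the number of groups. With cells summed per line, which leaves 5 pairs, 22 of these genes and no others were called, 3 higher in cluster 7 and 19 higher in cluster 8. When 1 of the 7 groups was left out the number of calls ran from 55, without PdgfrbGFP 881s, to 1.275 times that of the full set, without Cspg4dsRED. In all 7 of these fits 47 calls were kept, 9 of those higher in cluster 7 and 38 of those higher in cluster 8, and no called gene turned its direction. The balance between the clusters differed between tests. Of the calls 37.3% were higher in cluster 7, against 60.5% of 476 calls with every cell weighted alike, which used limma in place of edgeR, and 49.5% of 644 calls with DESeq2 on the same sums. The median gene lay at 0.109, toward cluster 7, and with this shift taken out 28.3% of the calls were higher in cluster 7.

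**Figure D1:**
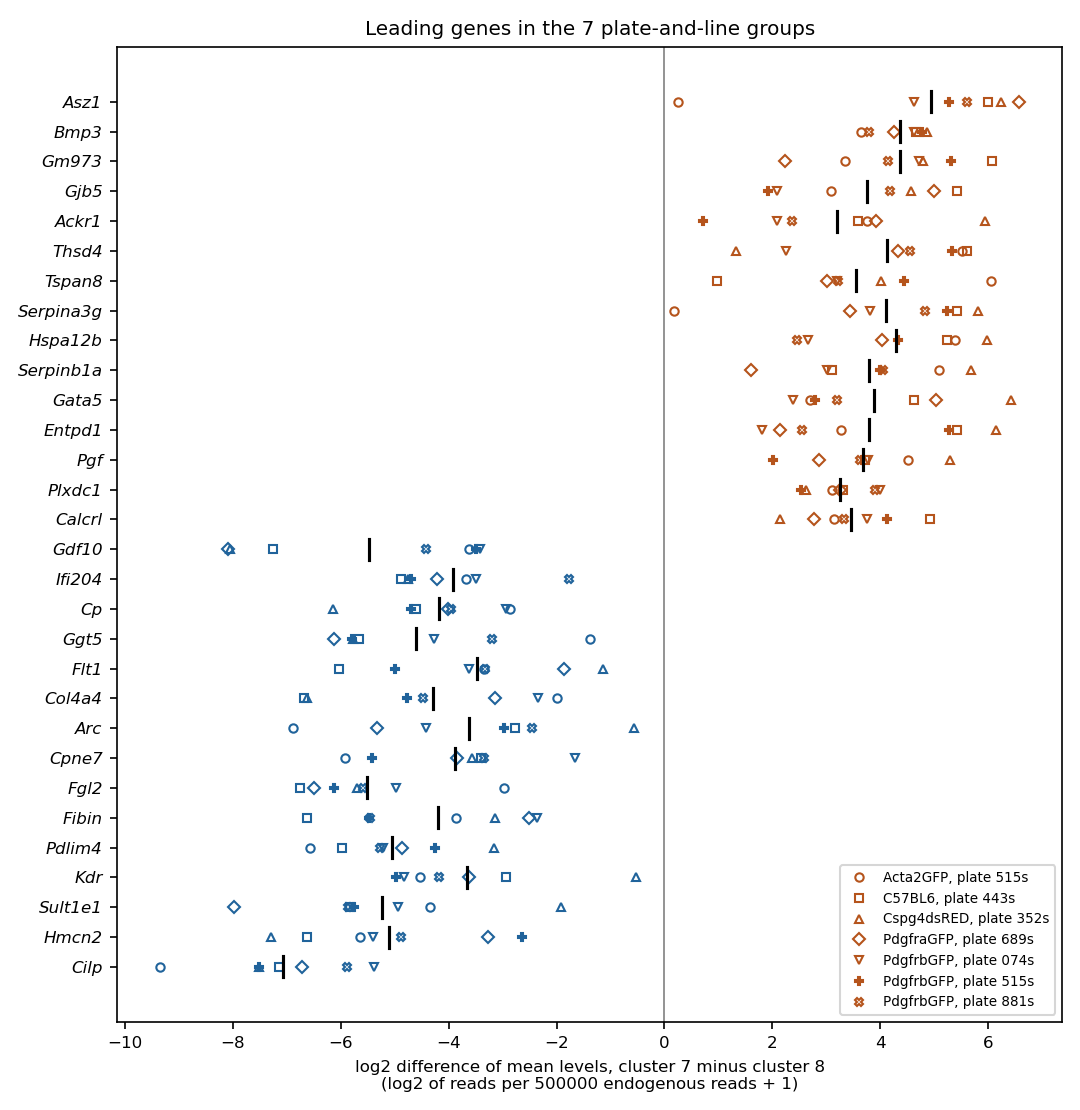
Difference of the mean level between cluster 7 and cluster 8 in each plate-and-line group (x axis, log2 of reads per 500000 + 1) for the 15 leading genes of each direction (y axis); each symbol is 1 of the 7 groups and the black bar is their mean. Genes higher in cluster 7 (brown) lie right of 0 and genes higher in cluster 8 (blue) left of 0 in every group, with Asz1 and Serpina3g near 0 in Acta2GFP (0.26 and 0.17). The like direction in all 7 groups was a condition for a leading gene and is no result.

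The gene with the largest fold change toward cluster 8 encodes a matrix protein, and matrix genes are described first. Cilp encodes cartilage intermediate layer protein, a secreted matrix protein known to bind TGF-beta and IGF1 (GRCm38, chr9:65265180-65280605, plus strand). Its level lay at 0, 2.18 and 8.22 in cluster 7 and at 333.5, 383 and 769 in cluster 8. The ranges lay far apart, and the fold change was -7.80 ± 0.57 (SE; adjusted p = 4.4e-04), the largest of the named genes. Hmcn2, a hemicentin of the extracellular matrix, lay at 0, 0.391 and 0.707 in cluster 7 and at 7.64, 49.3 and 155.2 in cluster 8, with a fold change of -7.59 ± 0.90 (SE; adjusted p = 0.00257). Both calls were kept without any 1 group and on sums per line.

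Among the small leucine-rich proteoglycans, which bind collagen fibrils and set their spacing, 2 of the 9 members tested were called and both were higher in cluster 8. Ogn, osteoglycin, lay at 21.1, 69.8 and 182.8 in cluster 7 and at 233.96, 482 and 754 in cluster 8 (log2 fold change -2.73 ± 0.32, adjusted p = 0.00257). Fmod, fibromodulin, lay at 0.298, 9.55 and 17.8 in cluster 7 and at 132.2, 507 and 619 in cluster 8 (log2 fold change -5.49 ± 1.00, adjusted p = 0.0238). Ogn stood out in all 7 leave-one-out fits and on line sums, whereas the call of Fmod was lost without C57BL6, PdgfraGFP, PdgfrbGFP 515s or PdgfrbGFP 881s (adjusted p = 0.0595 to 0.101). All 9 members had a fitted change below 0, with a median of -0.89 beside 0.11 over all genes. Lum, lumican, at 722 ± 112.03 against 1239 ± 300.9, and Prelp, at 572 ± 80.1 against 1009 ± 254.1, passed the adjusted p (0.00474 and 0.0265) but changed less than 2-fold.

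Of the matricellular proteins, secreted proteins that tune how cells meet the matrix, 3 of 15 tested were called, all higher in cluster 8, and 14 of 15 had a fitted change below 0 (median -0.89). Besides Cilp these were Thbs1 and Ccn5. Thbs1, thrombospondin 1, an activator of latent TGF-beta and a blocker of angiogenesis, lay at 0.16, 10.8 and 28.6 in cluster 7 and at 65.9, 139.8 and 244.2 in cluster 8 (log2 fold change -4.56 ± 0.54, adjusted p = 0.00257). It was kept without any 1 group and on line sums. Ccn5, a CCN family protein, averaged 17.4 ± 38.4 against 83.5 ± 97.1 (log2 fold change -5.21 ± 0.91, adjusted p = 0.0185), and was higher in cluster 8 in 6 of 7 groups. In PdgfrbGFP 515s it went the other way, and the call of Ccn5 was lost without C57BL6, PdgfraGFP, PdgfrbGFP 074s or PdgfrbGFP 881s (adjusted p = 0.0537 to 0.101).

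Among collagens and basement membrane genes 2 were called. None of 6 fibrillar chains tested was called, although all 6 had a fitted change below 0 (median -0.48). Col6a3, a chain of the beaded filaments of type VI collagen, was the called member among 9 other collagen chains tested, and lay at 21.6, 79.2 and 122.5 in cluster 7 and at 289.7, 352 and 959 in cluster 8 (log2 fold change -2.57 ± 0.28, adjusted p = 0.00157). It was kept in every leave-one-out fit and on line sums. In basement membrane genes, 1 of 18 tested was called, Col4a4, a type IV collagen chain, with 1.83 ± 3.03 against 50.7 ± 40.97 (log2 fold change -5.98 ± 1.16, adjusted p = 0.0316). The call of Col4a4 was lost without C57BL6, PdgfraGFP, PdgfrbGFP 515s or PdgfrbGFP 881s (adjusted p = 0.0959 to 0.115).

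Elastic fibre genes split. Of 16 tested, 3 were called, all higher in cluster 8, with 8 fitted above and 8 below 0. The summed level of the list went the other way, at 9302 ± 1178 in cluster 7 and 8324 ± 1217 in cluster 8. It was higher in cluster 7 in 6 of 7 groups. Mfap2, a microfibril protein, averaged 87.3 ± 38.2 against 247.5 ± 98.1 (log2 fold change -1.36 ± 0.17, adjusted p = 0.00436), and it kept its call without any 1 group but not on line sums (adjusted p = 0.0646). Mfap4, another microfibril-associated protein, averaged 322.1 ± 202.9 against 839 ± 455 (log2 fold change -1.47 ± 0.25, adjusted p = 0.0183), and Eln, elastin, 102.9 ± 49.1 against 390.1 ± 249.7 (log2 fold change -1.95 ± 0.35, adjusted p = 0.0232). The call of Mfap4 was lost without C57BL6, PdgfrbGFP 515s or PdgfrbGFP 881s (adjusted p = 0.066 to 0.0774), and that of Eln without Acta2GFP, C57BL6, PdgfrbGFP 515s or PdgfrbGFP 881s (adjusted p = 0.0599 to 0.0918). In the other direction Mfap5, a further microfibril protein, was higher in cluster 7 in all 7 groups at 463 ± 71.4 against 266.01 ± 46.7, with a fold change of 0.72 ± 0.14 (SE; adjusted p = 0.0294) that stayed under 2-fold. The exons of Eln and Mfap4 overlap other annotated genes, to which part of their reads could belong.

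**Figure D2:**
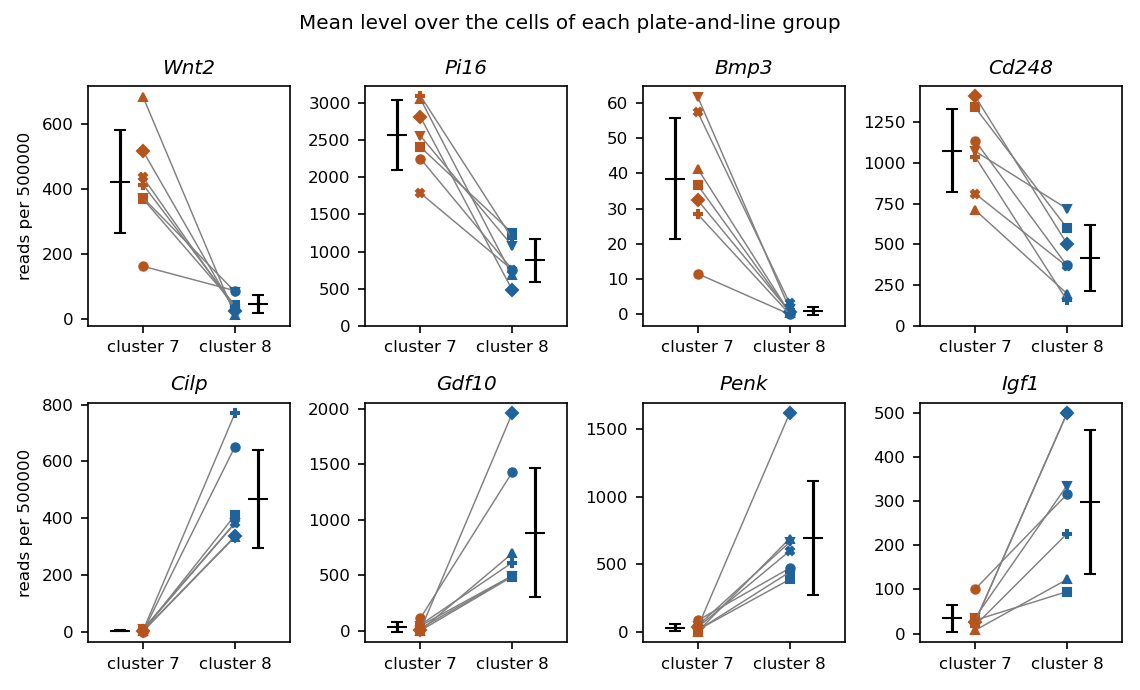
Level in cluster 7 and cluster 8 (y axis, reads per 500000) of 8 genes in each plate-and-line group; a grey line joins the 2 clusters of a group, and the black bar and whiskers are the mean ± SD of the 7 groups. Wnt2, Pi16 and Bmp3 fell from cluster 7 to cluster 8 without overlap of the group levels, Cd248 was higher in cluster 7 in all 7 groups, and Cilp, Gdf10 and Penk were at or near the bottom of the scale in cluster 7.

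Secreted signals formed the next group. Gdf10, also called BMP3B, a divergent member of the BMP family (GRCm38, chr14:33923587-33937983, plus strand), lay at 1.64, 22.2 and 114.98 in cluster 7 and at 489, 616 and 1959 in cluster 8. The lowest cluster 8 group stood above the highest cluster 7 group, with a fold change of -5.51 ± 0.84 (SE; adjusted p = 0.0103). Bmp3, its closest relative in the family and like it known as an antagonist of BMP signals, was higher in the other cluster (chr5:98854415-98884396, plus strand). Bmp3 lay at 11.5, 36.6 and 61.7 in cluster 7 and at 0, 0.483 and 3.21 in cluster 8, and its fold change was 5.97 ± 0.80 (SE; adjusted p = 0.00574). Both calls were kept without any 1 group, and neither on line sums (adjusted p = 0.063 for Gdf10 and 0.108 for Bmp3). Bmp3 was a low-level gene, and after cells were thinned to equal depth it fell below the filter on low counts and was not tested. The other 5 tested members of the BMP list were not called, among them Bmp4 at 352 ± 72.8 against 240.1 ± 103.02 (adjusted p = 0.549). The BMP list also holds Bmp1, a collagen processing enzyme and not a ligand.

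Wnt signals split in a like manner. Wnt2, a ligand of the canonical Wnt pathway (GRCm38, chr6:17988940-18030585, minus strand), lay at 162.96, 414 and 685 in cluster 7 and at 12.9, 40.8 and 87.8 in cluster 8. Every cluster 7 group lay above every cluster 8 group, and the fold change was 3.22 ± 0.57 (SE; adjusted p = 0.0197). The call of Wnt2 was lost without C57BL6, PdgfraGFP, PdgfrbGFP 515s or PdgfrbGFP 881s (adjusted p = 0.07 to 0.0807). Wnt2 was the called member among 6 Wnt and R-spondin genes tested. Among 6 secreted Wnt antagonists the called one was Sfrp1, a soluble Frizzled-related protein, in cluster 8. Sfrp1 lay at 22.4, 61.03 and 97.2 in cluster 7 and at 131.3, 178.3 and 353 in cluster 8 (log2 fold change -2.13 ± 0.27, adjusted p = 0.00436), and it was kept in every leave-one-out fit and on line sums. Asz1, a germ cell gene of the piRNA pathway, is annotated on the same strand 20378 bases from Wnt2 and shares no exon with it. Asz1 had the largest fold change of the named genes toward cluster 7 (77.5 ± 45.5 against 2.21 ± 4.03; log2 fold change 6.65 ± 1.25, adjusted p = 0.0289). In Acta2GFP the levels of Asz1 nearly met, and its call was lost without C57BL6, PdgfraGFP, PdgfrbGFP 074s, PdgfrbGFP 515s or PdgfrbGFP 881s (adjusted p = 0.0728 to 0.11).

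Among growth factors of other families, Igf1 was called. Igf1, insulin-like growth factor 1, lay at 7.42, 26.4 and 100.4 in cluster 7 and at 94.8, 315.1 and 498 in cluster 8 (log2 fold change -3.11 ± 0.42, adjusted p = 0.00622). In each group the cluster 8 level was the higher one, and the call of Igf1 was kept without any 1 group but not on line sums (adjusted p = 0.0851). It was the called member among 7 FGF, HGF and IGF ligands tested, of which 6 had a fitted change below 0. Fgf10, a ligand known for epithelial growth, was lower in cluster 7 in all 7 groups without passing (1.54 ± 2.99 against 23.5 ± 21.9; adjusted p = 0.111). Penk, the precursor of the enkephalin peptides and a gene listed for parenchymal fibroblasts, lay at 1.39, 32.1 and 83.2 in cluster 7 and at 387, 598 and 1617 in cluster 8 (GRCm38, chr4:4133531-4138819, minus strand). The groups did not overlap, the fold change was -4.94 ± 0.71 (SE; adjusted p = 0.00761), and no left-out group ended the call, which was lost on line sums (adjusted p = 0.114). All 9 parenchymal fibroblast genes tested had a fitted change below 0 (median -0.67), but Penk was the 1 that was called. The exons of Penk overlap the gene A830012C17Rik on the annotation, which was called in the same direction, so the 2 could share reads.

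A pair of VEGF receptors was called higher in cluster 8 and a VEGF family ligand higher in cluster 7. Kdr, VEGF receptor 2 (GRCm38, chr5:75932827-75978458, minus strand), lay at 0, 0.128 and 1.64 in cluster 7 and at 0.443, 22.2 and 46.9 in cluster 8, and Flt1, VEGF receptor 1, lay at 0, 0.447 and 2.09 in cluster 7 and at 1.21, 27.5 and 94.4 in cluster 8. Levels in cluster 7 were close to 0 and those in cluster 8 were uneven across groups. The fold changes were -6.97 ± 1.01 (SE; adjusted p = 0.00766) for Kdr and -5.86 ± 1.07 (SE; adjusted p = 0.0238) for Flt1. Pgf, placental growth factor, a ligand of FLT1, lay at 48.2, 58.97 and 119.7 in cluster 7 and at 1.14, 3.47 and 15.6 in cluster 8 (log2 fold change 3.92 ± 0.59, adjusted p = 0.00862). Cluster 7 was above cluster 8 for Pgf with no overlap, and its call was kept without any 1 group but not on line sums (adjusted p = 0.0851). The call of Flt1 was lost without C57BL6, PdgfraGFP, PdgfrbGFP 074s, PdgfrbGFP 515s or PdgfrbGFP 881s (adjusted p = 0.0551 to 0.102), and without PdgfrbGFP 881s Kdr fell below the filter on low counts and was not tested. Flt1 was not called on line sums, Kdr was not tested there, and neither passed the filter on low counts after thinning. With equal weight per cell the change of Kdr was below 2-fold. Flt1 and Kdr are textbook endothelial genes. The other endothelial markers (7 genes without Kdr) summed to 55.5 ± 17.8 in cluster 7 and 41.99 ± 18.6 in cluster 8. Cdh5, the cadherin of endothelial junctions, averaged 0.11 and 0.18. Of the 54 cluster 8 cells with a Kdr read, 53 also had a Pdgfra read, 44 a Pecam1 read, 32 a Cldn5 read, 18 a Vwf read and 10 a Cdh5 read. Over all cluster 8 cells the shares with a read were 73.08% for Pecam1, 29.12% for Cldn5, 19.78% for Vwf and 7.14% for Cdh5. Of the 32 cluster 7 cells with a Kdr read, 29 had a Pecam1 read, 20 a Cldn5 read, 14 a Vwf read and 4 a Cdh5 read, and over all cluster 7 cells the shares were 68.12%, 32.31%, 21.83% and 6.11%. These counts were not matched for depth, and Cilp, a matrix gene, also had a read in 50 of the 54 and in 27 of the 32 cells with a Kdr read, against 78.02% of all cluster 8 cells and 63.76% of all cluster 7 cells. The part of endothelial RNA in the calls of Kdr and Flt1 was not tested.

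Among the leading cluster 8 genes were enzymes, described here with the lipid genes. Sult1e1, the sulfotransferase that inactivates oestrogens, lay at 0, 0.879 and 4.2 in cluster 7 and at 2.76, 104.1 and 471 in cluster 8 (log2 fold change -6.98 ± 0.91, adjusted p = 0.00472). It was kept without any 1 group but not on line sums (adjusted p = 0.0851). Cp, ceruloplasmin, the copper-carrying ferroxidase, averaged 1.89 ± 2.0 against 50.1 ± 27.5 (log2 fold change -5.61 ± 0.81, adjusted p = 0.00761), was likewise kept but not on line sums (adjusted p = 0.108), and has an exon overlap with Hps3. Of 13 lipid handling genes tested, 3 were called, all higher in cluster 8. Apod, apolipoprotein D, lay at 24.9, 131.7 and 245.1 in cluster 7 and at 208.9, 525 and 1562 in cluster 8 (log2 fold change -2.45 ± 0.33, adjusted p = 0.00622), and it was kept in every leave-one-out fit and on line sums. Lpl, lipoprotein lipase, averaged 44.4 ± 33.8 against 161.9 ± 135.1 and Apoe, apolipoprotein E, 426 ± 203.1 against 856 ± 442 (adjusted p = 0.0207 and 0.044). The call of Lpl was lost without C57BL6 or PdgfraGFP (adjusted p = 0.0721 to 0.0825), and that of Apoe without C57BL6, Cspg4dsRED, PdgfraGFP, PdgfrbGFP 074s, PdgfrbGFP 515s or PdgfrbGFP 881s (adjusted p = 0.0789 to 0.174). Ggt5, a gamma-glutamyltransferase that converts leukotriene C4, was at 6.49 ± 10.2 against 84.7 ± 26.95 (log2 fold change -5.74 ± 1.13, adjusted p = 0.0334), a call lost without C57BL6, Cspg4dsRED, PdgfraGFP, PdgfrbGFP 074s, PdgfrbGFP 515s or PdgfrbGFP 881s (adjusted p = 0.0521 to 0.118). The adipocyte genes Adipoq and Plin1 were at 0 in both clusters.

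Serpinf1, which encodes the antiangiogenic factor PEDF, lay at 183.3, 375 and 456 in cluster 7 and at 848, 1067 and 1469 in cluster 8. All cluster 8 groups were above all cluster 7 groups (log2 fold change -1.78 ± 0.16, adjusted p = 7.3e-04), and the call held in each leave-one-out fit and on line sums. Calls among complement genes went both ways. C7, a component of the membrane attack complex, averaged 118.99 ± 46.7 against 342.5 ± 214.7 (log2 fold change -1.53 ± 0.24, adjusted p = 0.013) and was called higher in cluster 8, a call lost without PdgfrbGFP 881s (adjusted p = 0.0611). Cd55, the decay accelerating factor, was called higher in cluster 7 and is described below with the adventitial genes. Adamts1, a secreted protease that cleaves proteoglycans, averaged 76.9 ± 40.2 against 209.8 ± 114.4 (log2 fold change -1.74 ± 0.28, adjusted p = 0.0134), a call lost without PdgfrbGFP 881s (adjusted p = 0.0526), and was the called member of 19 ADAMTS genes tested.

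Further leading genes of cluster 8 act inside the cell or have roles less tied to matrix. Pdlim4, an actin-binding PDZ and LIM domain protein, lay at 0, 0.665 and 1.3 in cluster 7 and at 18.01, 61.01 and 113.8 in cluster 8 (log2 fold change -6.82 ± 0.71, adjusted p = 0.00157). Fgl2, a fibrinogen-like protein with prothrombinase activity, lay at 0.586, 0.933 and 20.98 in cluster 7 and at 81.8, 165.6 and 222.9 in cluster 8 (log2 fold change -6.55 ± 0.66, adjusted p = 0.00137). Neither gene overlapped between the clusters, and both calls were kept without any 1 group and on line sums. Fibin averaged 0.54 ± 0.725 against 43.3 ± 49.1, Cpne7, a calcium-dependent membrane-binding copine, 0.966 ± 1.9 against 26.2 ± 18.9, and Ifi204, an interferon-inducible gene with close paralogues that could share its reads, 1.36 ± 2.28 against 27.7 ± 6.9. The call of Fibin was lost without C57BL6 or PdgfrbGFP 881s (adjusted p = 0.079 to 0.099), that of Cpne7 without Acta2GFP, C57BL6, PdgfraGFP, PdgfrbGFP 515s or PdgfrbGFP 881s (adjusted p = 0.0586 to 0.114) and that of Ifi204 without C57BL6, PdgfraGFP, PdgfrbGFP 074s or PdgfrbGFP 515s (adjusted p = 0.059 to 0.101).

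The summed level of immediate-early genes was higher in cluster 8. These are genes switched on within minutes of a stimulus, also by tissue dissociation. It ran from 3723 to 6722 in cluster 7 and from 4244 to 12828 in cluster 8, and cluster 8 had the higher sum in 7 of 7 groups (4855 ± 1033 against 9912 ± 2806). Of 29 members tested, 3 were called, all higher in cluster 8, and 23 had a fitted change below 0 (median -1.03). Btg2, an antiproliferative gene, lay at 3.37, 70.4 and 116.5 in cluster 7 and at 152.9, 255.3 and 516 in cluster 8 (log2 fold change -2.50 ± 0.48, adjusted p = 0.0308). Gadd45b, a stress-response gene, lay at 2.31, 21.8 and 50.96 in cluster 7 and at 60.1, 75.9 and 229.4 in cluster 8 (log2 fold change -2.86 ± 0.53, adjusted p = 0.025). The clusters did not overlap for these 2 genes, while Fosb, a subunit of the AP-1 transcription factor, averaged 47.9 ± 42.1 against 169.4 ± 98.7 (log2 fold change -2.35 ± 0.47, adjusted p = 0.0354) with overlap. Ranked from the highest of the 11 clusters, Btg2 was 11th in cluster 7 and 4th in cluster 8. Fosb was 10th and 4th, and Gadd45b 10th and 6th, so other clusters had higher levels than cluster 8. The call of Btg2 was lost without C57BL6, PdgfraGFP, PdgfrbGFP 074s or PdgfrbGFP 881s (adjusted p = 0.0715 to 0.122), that of Gadd45b without Acta2GFP, C57BL6, PdgfraGFP or PdgfrbGFP 881s (adjusted p = 0.0512 to 0.101) and that of Fosb without Acta2GFP, C57BL6, PdgfraGFP, PdgfrbGFP 515s or PdgfrbGFP 881s (adjusted p = 0.0697 to 0.12). Ier2 (327.8 ± 119.8 against 700.0 ± 176.1; log2 fold change -0.996 ± 0.20, adjusted p = 0.04) and Dusp1 (517 ± 156.4 against 949 ± 290.4; log2 fold change -0.77 ± 0.15, adjusted p = 0.0373) passed the adjusted p with a fitted change, on summed reads, of less than 2-fold, and Klf4, at 172.2 ± 63.4 against 95.3 ± 16.7, was higher in cluster 7 in 7 of 7 groups without passing (adjusted p = 0.205). Heat shock chaperones did not follow, with 0 of 17 called by edgeR and a median of -0.04. The part of dissociation in these differences was not tested.

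Arc, an activity-regulated gene that is not in that list, averaged 0.534 ± 1.08 against 42.8 ± 58.5 (log2 fold change -6.21 ± 1.18, adjusted p = 0.029), and its call was lost without Acta2GFP, C57BL6, PdgfraGFP, PdgfrbGFP 074s, PdgfrbGFP 515s or PdgfrbGFP 881s (adjusted p = 0.0619 to 0.124). Of 14 steroid receptors and glucocorticoid targets tested, 2 were called, both higher in cluster 8. Sgk1, a kinase induced by glucocorticoids, lay at 6.37, 15.98 and 22.9 in cluster 7 and at 27.8, 123.4 and 180.02 in cluster 8 (log2 fold change -2.88 ± 0.57, adjusted p = 0.0351), and Errfi1, a feedback inhibitor of the EGF receptor, lay at 0.704, 24.2 and 49.2 in cluster 7 and at 61.5, 161.6 and 263.99 in cluster 8 (log2 fold change -3.14 ± 0.57, adjusted p = 0.024). The groups of the 2 clusters lay apart for both genes. The call of Sgk1 was lost without Acta2GFP, C57BL6, PdgfraGFP, PdgfrbGFP 074s, PdgfrbGFP 515s or PdgfrbGFP 881s (adjusted p = 0.0773 to 0.142) and that of Errfi1 without Acta2GFP, C57BL6, PdgfraGFP or PdgfrbGFP 074s (adjusted p = 0.0512 to 0.0845).

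The promoters of the 3 called immediate-early genes are printed because such genes are known targets of CREB, the cAMP response factor that binds TGACGTCA and its part TGACG. Each sequence is the 250 bases before the start site, 5′ to 3′ on the strand of the gene, from RefSeq on GRCm38.p6, with a match in capitals. The regions are chr7:19310046-19310295 (minus strand) for Fosb, chr1:134079156-134079405 (minus strand) for Btg2 and chr10:80929841-80930090 (plus strand) for Gadd45b.
Fosb: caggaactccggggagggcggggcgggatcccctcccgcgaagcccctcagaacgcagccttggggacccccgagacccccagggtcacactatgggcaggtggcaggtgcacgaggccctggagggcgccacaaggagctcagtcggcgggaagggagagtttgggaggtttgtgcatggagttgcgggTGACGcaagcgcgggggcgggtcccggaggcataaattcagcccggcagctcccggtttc
Btg2: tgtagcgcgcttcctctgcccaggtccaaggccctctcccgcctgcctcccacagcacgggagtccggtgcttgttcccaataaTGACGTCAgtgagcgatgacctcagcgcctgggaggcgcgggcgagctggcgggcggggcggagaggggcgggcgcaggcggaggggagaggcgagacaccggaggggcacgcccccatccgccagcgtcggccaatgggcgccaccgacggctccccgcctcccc
Gadd45b: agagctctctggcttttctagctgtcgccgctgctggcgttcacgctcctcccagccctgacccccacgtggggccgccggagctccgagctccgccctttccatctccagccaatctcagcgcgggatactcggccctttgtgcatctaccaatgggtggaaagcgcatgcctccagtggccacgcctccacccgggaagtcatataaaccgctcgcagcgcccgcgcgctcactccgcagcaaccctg
Fosb held TGACG at base -60 from the start site, Btg2 the full TGACGTCA at base -166, and Gadd45b neither. Both strands were searched, and each TGACGTCA also counts as TGACG. TGACGTCA was in 1.546% of 32851 mouse promoters of this length and in 3 of 35 promoters of the immediate-early list (26 of its 31 genes had one). TGACG was in 17.77% of all promoters, in 21 of these 35, in 13 of 81 promoters of the genes higher in cluster 8 (16.05%) and in 7 of 44 of those higher in cluster 7 (15.91%). TGACGTCA was in 3 of the 81 (3.70%) and in 1 of the 44 (2.27%).

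**Figure D3:**
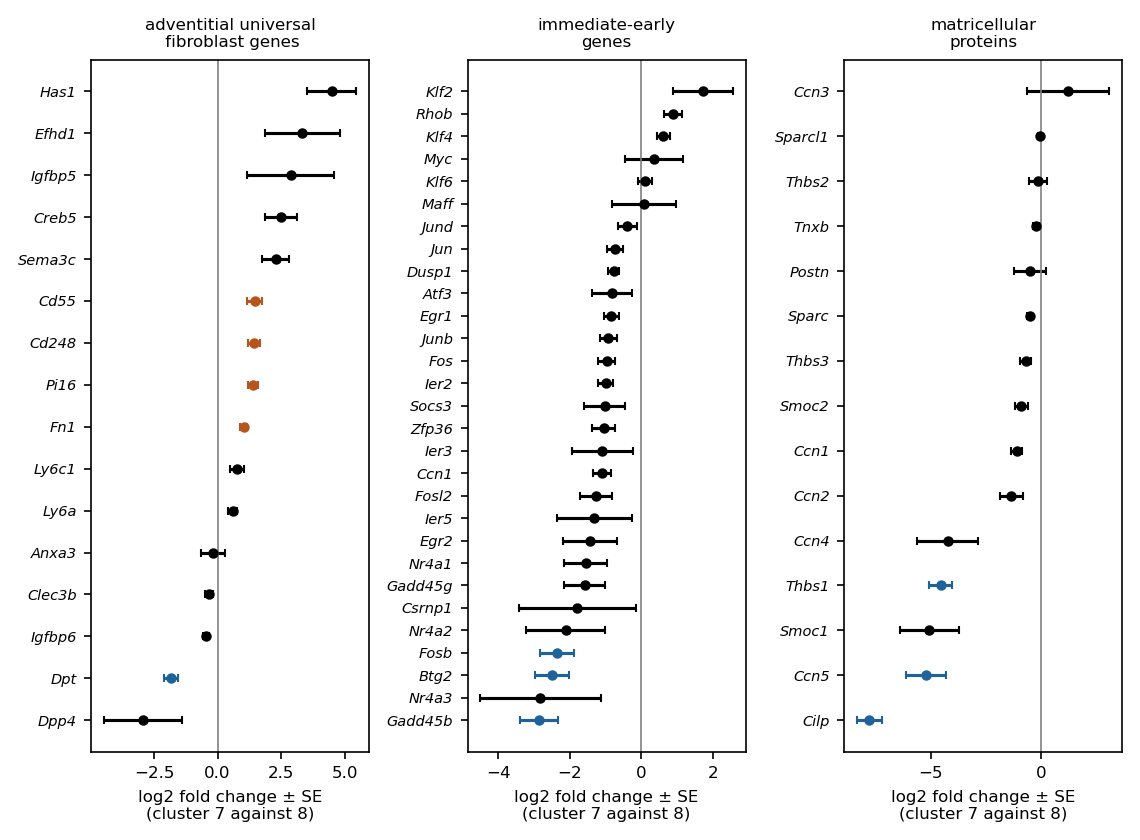
Fitted log2 fold change (x axis, cluster 7 over cluster 8, point ± SE) of every tested member (y axis) of 3 gene lists; brown points were called higher in cluster 7, blue points higher in cluster 8, and black points were not called. Called adventitial genes were 4 toward cluster 7 and 1 (Dpt) toward cluster 8, and the called immediate-early (3) and matricellular (3) genes were all toward cluster 8.

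Genes listed for the universal adventitial fibroblast had a higher summed level in cluster 7. Of the 16 members, all tested, 4 were called higher in cluster 7 and 1 higher in cluster 8, with 11 fitted above 0 (median 1.21). Their summed level was 6742 ± 543 in cluster 7 and 3900 ± 714 in cluster 8, with cluster 7 the higher in all 7 groups. Pi16, peptidase inhibitor 16, the gene that names this fibroblast type (GRCm38, chr17:29317680-29330593, plus strand), lay at 1785, 2555 and 3095 in cluster 7 and at 483, 758 and 1249 in cluster 8. Its ranges did not overlap and its fold change was 1.40 ± 0.20 (SE; adjusted p = 0.00666), a call kept without any 1 group but not on line sums (adjusted p = 0.0979). Cd248, endosialin, a surface glycoprotein of stromal cells, lay at 712, 1074 and 1411 in cluster 7 and at 157.8, 371 and 719.7 in cluster 8 (log2 fold change 1.43 ± 0.23, adjusted p = 0.0133). Cd248 was called on line sums and lost its call without PdgfraGFP (adjusted p = 0.052) and with limma-voom.

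Cd55, which protects cells from complement, averaged 366 ± 135.5 against 141.96 ± 64.4 (log2 fold change 1.45 ± 0.30, adjusted p = 0.0421), and Fn1, fibronectin, 463 ± 115.5 against 235.8 ± 93.96 (log2 fold change 1.02 ± 0.14, adjusted p = 0.00732). The call of Cd55 was lost without Acta2GFP, Cspg4dsRED, PdgfraGFP, PdgfrbGFP 074s, PdgfrbGFP 515s or PdgfrbGFP 881s (adjusted p = 0.0827 to 0.13), and that of Fn1, just above 2-fold, was lost because the fold change dropped below 2-fold without Acta2GFP, C57BL6, Cspg4dsRED or PdgfraGFP (adjusted p = 0.0122 to 0.0331). Both calls were also lost when the median gene was put at 0. The called member that went against the list was Dpt, dermatopontin, a matrix protein that binds decorin, at 109.2 ± 70.6 against 369 ± 154.99 (log2 fold change -1.83 ± 0.27, adjusted p = 0.00822), and its call was kept without any 1 group but not on line sums (adjusted p = 0.153). Cd34, the sialomucin by which such cells are often sorted, was higher in cluster 7 in 7 of 7 groups at 1325 ± 312.2 against 646 ± 199.2 and passed the adjusted p (0.00257) with less than 2-fold (0.89 ± 0.10). Sema3c, a semaphorin, and Has1, a hyaluronan synthase, were higher in cluster 7 in all 7 groups without passing (267.7 ± 69.6 against 70.9 ± 51.5 and 35.4 ± 28.1 against 4.77 ± 6.84; adjusted p = 0.0766 and 0.0522). Dpp4, another gene of this fibroblast type, averaged 3.9 ± 7.12 against 23.04 ± 25.01 and was higher in cluster 7 in 1 of 7 groups (adjusted p = 0.666).

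Genes higher in cluster 7 also included receptors, enzymes and transcription factors. Calcrl, the receptor that binds CGRP and adrenomedullin with a RAMP partner, lay at 12.97, 71.4 and 125.6 in cluster 7 and at 0.32, 4.32 and 11.5 in cluster 8 (log2 fold change 3.52 ± 0.57, adjusted p = 0.0134). Its ligand gene Adm, named after its values were seen, was called in the other direction (4.45 ± 4.59 against 63.6 ± 53.1; log2 fold change -3.71 ± 0.73, adjusted p = 0.042). The call of Calcrl was lost without PdgfrbGFP 074s, PdgfrbGFP 515s or PdgfrbGFP 881s (adjusted p = 0.0506 to 0.0712) and that of Adm without Acta2GFP, C57BL6, PdgfrbGFP 074s, PdgfrbGFP 515s or PdgfrbGFP 881s (adjusted p = 0.0734 to 0.206), on line sums (adjusted p = 0.328) and without the block. Entpd1, CD39, an enzyme that breaks down extracellular ATP, lay at 46.3, 88.8 and 129.95 in cluster 7 and at 0, 3.87 and 26.2 in cluster 8 (log2 fold change 4.13 ± 0.87, adjusted p = 0.0455), a call lost without Acta2GFP, C57BL6, PdgfraGFP, PdgfrbGFP 515s or PdgfrbGFP 881s (adjusted p = 0.0846 to 0.155). Ptges, the prostaglandin E synthase, averaged 256.4 ± 117.8 against 102.9 ± 65.9 (log2 fold change 1.32 ± 0.24, adjusted p = 0.0232), was the called member of 7 prostaglandin genes tested, and lost its call without Acta2GFP, C57BL6, PdgfraGFP, PdgfrbGFP 074s, PdgfrbGFP 515s or PdgfrbGFP 881s (adjusted p = 0.059 to 0.0971).

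Of 32 mesenchymal transcription factors tested, 1 was called. Osr1, a zinc finger factor of early urogenital mesoderm, lay at 279.2, 379 and 689.6 in cluster 7 and at 118.7, 193.1 and 196.8 in cluster 8 (log2 fold change 1.27 ± 0.20, adjusted p = 0.0119), with cluster 7 above cluster 8 throughout. Its call was lost without PdgfraGFP (adjusted p = 0.052), on line sums (adjusted p = 0.115) and with limma-voom. Gata5, a GATA factor outside that list, lay at 34.02, 78.5 and 85.6 in cluster 7 and at 0, 2.81 and 11.8 in cluster 8 (log2 fold change 4.26 ± 0.82, adjusted p = 0.0316), again with no overlap, and its call was lost without C57BL6, PdgfraGFP, PdgfrbGFP 074s, PdgfrbGFP 515s or PdgfrbGFP 881s (adjusted p = 0.069 to 0.107). It shares exon sequence with Gata5os, its antisense gene.

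The remaining leading genes of cluster 7 were low-level genes. Hspa12b, a divergent member of the heat shock 70 family, averaged 76.98 ± 31.4 against 4.3 ± 4.5, Serpina3g 90.8 ± 54.3 against 3.78 ± 5.09 and Serpinb1a 68.4 ± 23.2 against 6.96 ± 8.87, and the latter pair have close paralogues that could share their reads. Thsd4, a thrombospondin domain protein that supports fibrillin microfibrils, averaged 45.4 ± 23.3 against 1.74 ± 2.69, Plxdc1 48.4 ± 25.2 against 4.79 ± 4.15, Gm973 43.7 ± 25.5 against 1.46 ± 2.67, Tspan8, a tetraspanin, 29.02 ± 24.4 against 2.3 ± 4.33, Gjb5, a connexin, 32.7 ± 16.5 against 2.46 ± 3.7 and Ackr1, a decoy chemokine receptor, 17.3 ± 19.99 against 0.318 ± 0.46. All 9 were higher in cluster 7 in 7 of 7 groups, as the rule for a leading gene required. The calls of Gjb5 and Ackr1 were lost without any 1 of the 7 groups (adjusted p up to 0.161 and 0.115). Those of Tspan8, Thsd4, Plxdc1, Hspa12b, Serpinb1a, Gm973 and Serpina3g were lost without 6, 5, 5, 4, 4, 4 and 2 of them (adjusted p up to 0.163, 0.116, 0.122, 0.113, 0.0998, 0.0721 and 0.0685).

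Some further called genes lay outside the leading and listed ones and were picked after their values were seen. Scara5, a ferritin receptor, averaged 1125 ± 429 against 301.7 ± 317.04 (log2 fold change 2.08 ± 0.29, adjusted p = 0.00626) and Plxdc2 719 ± 239.6 against 171.8 ± 44.4 (log2 fold change 1.89 ± 0.15, adjusted p = 4.4e-04), both higher in cluster 7. Npy1r, a receptor of neuropeptide Y, averaged 282.3 ± 129.3 against 30.4 ± 20.9 (log2 fold change 3.13 ± 0.51, adjusted p = 0.0134), again higher in cluster 7. Gpx3, the secreted glutathione peroxidase, averaged 143.1 ± 77 against 2054 ± 807 (log2 fold change -3.88 ± 0.32, adjusted p = 4.4e-04), and Svep1, a large matrix adhesion protein, 185.9 ± 125.1 against 882 ± 408 (log2 fold change -2.40 ± 0.23, adjusted p = 0.00137), both higher in cluster 8. Of these 5 genes, Gpx3, Svep1 and Plxdc2 were called in every leave-one-out fit and on line sums.

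Genes that mark the sorts were not called. Pdgfrb averaged 137.2 ± 95.8 against 194.2 ± 66.9 (adjusted p = 0.483) and Acta2, smooth muscle actin, 53.1 ± 43.6 against 107.1 ± 129.3 (adjusted p = 0.761). None of the 6 tested members of the list of sub-epithelial fibroblast markers was called by edgeR, a list that does not hold Bmp3, which was called (above). Col12a1 was at 109.9 ± 45.02 against 50.4 ± 34.7 (adjusted p = 0.422), Cxcl14, a chemokine, at 31.1 ± 21.5 against 183.1 ± 206.3 (adjusted p = 0.266) and Bmp5 at 25.7 ± 31.3 against 3.54 ± 4.83 (adjusted p = 0.713), and the first was higher in cluster 7 in all 7 groups. Tnc, tenascin C, was near 0 in both (1.09 ± 1.46 against 1.32 ± 1.29). No member was called of the lists of collagen processing enzymes (18 tested), matrix metalloproteinases and inhibitors (10), BMP antagonists (7), TGF-beta ligands and receptors (7), IGF binding proteins (5), hedgehog response genes (8), chemokines and cytokines (12), interferon response genes (16), retinoid genes (10), cytoskeletal genes (19), cell cycle genes (8), nuclear-retained RNAs (4), mitochondrial mRNAs (10) and Schwann or nerve markers (1). Over all 42 lists, 36 of 406 distinct members tested were called, against 1.25% of all genes tested. Of all 11373 genes, 989 had an unadjusted p under 0.05.

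Single cells carried these differences unevenly. At 100 or more reads per 500000, Cilp was present in 41.2% (33.98 to 48.7%) of cluster 8 cells (exact 95% interval) and in 0% (0 to 1.6%) of cluster 7 cells, where a count of 0 cells allows up to that bound. Penk reached this level in 74.2% (67.2 to 80.4%) of cluster 8 and 9.17% (5.77 to 13.7%) of cluster 7 cells, and Gdf10 in 65.4% and 4.8%. Wnt2 did so in 79.5% (73.7 to 84.5%) of cluster 7 and 14.3% (9.55 to 20.2%) of cluster 8 cells, Bmp3 in 19.2% and 0%, and Pi16 in 98.7% and 84.6%. Of the 6 genes, Pi16 reached this level in most cells of both clusters, and Cilp and Bmp3 were found at this level in fewer than 1 in 2 cells of the cluster where they were higher. The intervals cover counting error over cells only.

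The 15 leading genes of each direction were counted in each cell after thinning to 50000 reads. A cluster 7 cell held a median of 6 of the cluster 7 genes and 1 of the cluster 8 genes, and a cluster 8 cell 1 and 5. In cluster 7, 91.23% of cells held more of their own genes, 8 cells held as many of each and 12 held more of cluster 8's genes. In cluster 8, 88.46% held more of their own, 8 as many and 13 more of cluster 7's. The genes were chosen on these cells, so the counts are a description. The pattern was not particular to the 2 clusters. Cluster 5 cells held medians of 6 and 1, and 92.11% of them held more of the cluster 7 genes. More of the cluster 8 genes were held by 80.95% of cluster 4 cells and 66.31% of cluster 6 cells.

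**Figure D4:**
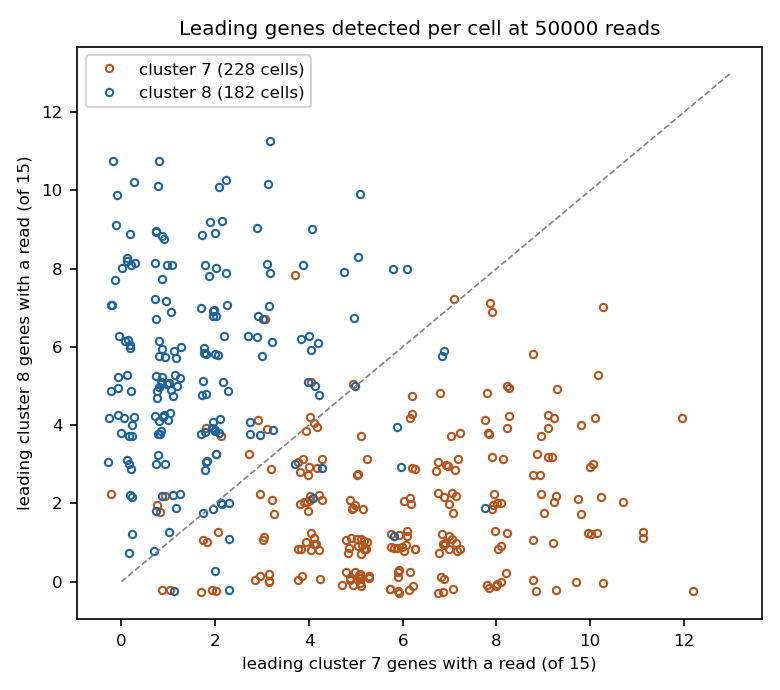
Number of the 15 leading cluster 7 genes (x axis) and of the 15 leading cluster 8 genes (y axis) with a read in each cell at 50000 reads; points are cells, jittered, brown for cluster 7 and blue for cluster 8, and the dashed line marks equal numbers. Cluster 7 cells lie mostly below the line and cluster 8 cells above it, with 12 and 13 cells on the other side.

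The levels of these genes were also set beside those in the other 9 clusters. Of the 15 leading cluster 8 genes, 9 had their highest mean level in cluster 8, 3 in cluster 4, 2 in cluster 6 and 1 in cluster 9. Cluster 8 has 8 groups here, since the 4 cells left out of the comparison form 1 more. Over the 7 compared groups, an alternative chosen after seeing the data, 9 were again highest in cluster 8, 3 in cluster 4, 1 in cluster 6 and 2 in cluster 9, and Cilp was then higher in cluster 9 (466.2 ± 172.2 in cluster 8). Cilp averaged 619 ± 461 in cluster 8 over its 8 groups, 563 ± 582 in cluster 9 and 172.2 ± 44.7 in cluster 6. Penk averaged 849 in the 1 group of cluster 4 and Fmod 452 ± 303.9 in cluster 5. Of the 15 leading cluster 7 genes, 4 were highest in cluster 7 and 6 in cluster 5, and the others in clusters 10 (2), 2, 4 and 11 (1 each). Bmp3 averaged 126.3 ± 17.7 in cluster 5, against 38.5 ± 17.2 in cluster 7. Wnt2 was at 342.3 ± 143.1 in cluster 5 and 423 ± 158.4 in cluster 7. For Pi16, clusters 3 (2826 ± 410.4) and 9 (3042 ± 728) had levels near that of cluster 7 (2565 ± 468), and cluster 5 a lower one (404 ± 194.1). These levels are means over groups of differing number and were not tested.

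**Figure D5:**
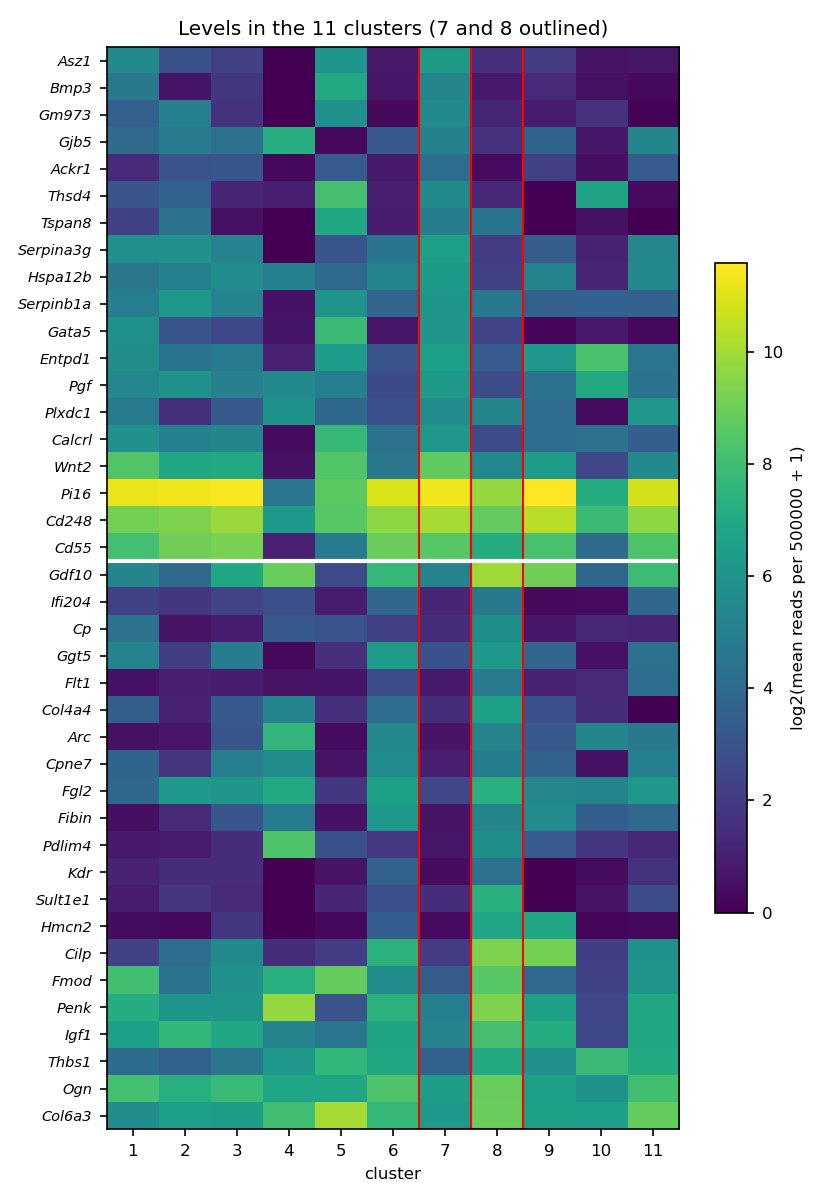
Mean level of the leading genes and 10 further called genes (rows) in the 11 clusters of the series (columns), as log2 of reads per 500000 + 1 (colour); the white line parts genes higher in cluster 7 (above) from genes higher in cluster 8 (below), and clusters 7 and 8 are outlined in red. Several cluster 7 genes, such as Bmp3, are brighter in cluster 5 than in cluster 7, whereas 9 of the 15 leading cluster 8 genes are brightest in cluster 8, Cilp among them only with the 4 left-out cells as an 8th group.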

How the data were processed

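Single cells of adult male mouse bladder were sequenced by Smart-seq2 and deposited as raw read counts per gene and cell, which the authors made with trim galore, TopHat2 on GRCm38 and featureCounts; the submitters' processing notes name bcl2fastq, Bowtie, Bowtie2, Subread and featureCounts, with GRCm38 and mm10. The annotation release and the strand setting are not given in the sources used here. Reads were not collapsed by molecular identifiers. The cluster labels came from the authors' pagoda2 clustering of the same cells. Per the study's methods, the sort gated doublets with a wide margin and cells with very many detected genes were dropped as possible doublets; no cell was filtered further here and no doublet caller was run.

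The 92 ERCC rows were set apart, and 46005 of 46517 gene rows matched GENCODE M21 (GRCm38), which gave names and coordinates. The clusters held 229 and 182 cells, 4 of the latter in no pair. Each cell's reads were scaled to 500000 gene reads; a level is the mean of a plate-and-line group's cells, and mean ± SD are over the 7 groups. Raw counts were summed per cluster and group and tested with edgeR 4.0.16 in R 4.3.3 (TMM scaling, filterByExpr, glmQLFit and glmQLFTest, group as block), which called 142 genes at a log2 fold change of at least 1 in size and an adjusted p (Benjamini-Hochberg) under 0.05. SE is the fold change divided by the root of F. The fits were tested on simulated data first. Plate and line pair the sums, since both clusters of a group were sorted from the same line onto the same plate: the deviations of the 2 sums of a group correlated at 0.057 to 0.224 and those of other pairs at -0.092 to 0.128, and 7 of 7 groups matched best within themselves. Technical measures were compared by exact sign-flip permutation over the 7 groups and shares by exact (Clopper-Pearson) 95% intervals. The labels name no mouse, so p-values measure the spread between these groups, which may be technical.

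Genes were named by the rule stated in the report, with the 12 study-named genes Pdgfra, Pdgfrb, Cd34, Tnc, Acta2, Col8a1, Col12a1, Cxcl14, Bmp2, Bmp3, Bmp5 and Bmp7. The members and the gene lists were chosen with earlier results of these data known, so no set test was run. The alternatives were median-of-ratios scaling, the median gene at 0, no filter, DESeq2 1.42.0, limma-voom (limma 3.58.1), sums per line, no block, thinning to 50000 reads, equal weight per cell (limma), other fold thresholds, a detection and fold criterion without a test (at least 30% of cells at 100 reads and 2-fold) and each group left out in turn. The study itself compared clusters over cells, which are not replicates. The result of 1 called list member is not reported here.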

Additional observations from a re-analysis of the deposited data

Results flagged for a closer look

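Among 66 values tested over the 7 groups, 4 had 1 group whose distance to the nearest other exceeded Dixon's critical value of 0.568 (6.061% of those tested, where chance gives about 1 in 20). Asz1 had a log2 difference between cluster 7 and cluster 8 of 0.256 in Acta2GFP, with 4.636 to 6.579 in the other groups. Serpina3g had 0.175 in the same group, with 3.443 to 5.822 in the others. Ccn5 had 0.862 in PdgfrbGFP 515s, with -5.427 to -3.077 in the others. The number of mural (cluster 10) cells in the same row or column of the plate differed by -2.0 between the medians of cluster 7 and cluster 8 cells in PdgfrbGFP 515s, with 0.0 to 1.5 in the others. The Acta2GFP group was the smallest of the 7, with 9 and 11 cells.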

How the results depend on the processing

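The number of called genes depended on the test, and is given here as a ratio to that of the test used for all calls above, for all genes, then those higher in cluster 7, those higher in cluster 8 and the called list members. Without the filter the ratios were 1.817, 1.981, 1.719 and 1.722, with DESeq2 4.535, 6.019, 3.652 and 2.528, with limma-voom 2.451, 2.34, 2.517 and 2.139, and with equal weight per cell 3.352, 5.434, 2.112 and 2.556. With sums per line they were 0.155, 0.057, 0.213 and 0.25, and with a fold threshold of 2 on the log2 scale 0.599, 0.434, 0.697 and 0.583. A criterion without a test, at least 30% of cells at 100 reads per 500000 and 2-fold, gave 1.583 for list members. With 1 group left out they ran from 0.387 to 1.275 for all genes, from 0.226 to 1.113 for cluster 7, from 0.483 to 1.371 for cluster 8 and from 0.528 to 1.389 for list members. Without the replicate block that pairs the sums of a group the ratio was 0.901, and the calls of Ggt5, Ccn5, Gadd45b, Fosb, Lpl, Mfap4, Apoe, Cd55, Ptges, Plxdc1, Entpd1, Tspan8, Gjb5 and Gm973 were lost among the genes named above by rule. In thinned cells Kdr, Arc, Flt1, Ackr1 and Bmp3 fell below the filter on low counts and were not tested, and the calls of Fn1 and Tspan8 were lost, as were those of Kdr, Cpne7, Arc, Adamts1 and Ackr1 with equal weight per cell. Calls lost with limma-voom include those of Apoe, Fn1, Osr1 and Cd248. Other scalings, thinned cells and no fold threshold stayed within 1.5 times. Every called gene kept its direction wherever it was tested. The difference in neighbouring mural cells (0.071, not past the test) was -0.0951 as a mean over cells and ran from -0.1667 to 0.4167 with 1 group left out. Depth limits genes near 1 read per 500000, such as Kdr in cluster 7 and Bmp3 in cluster 8, whose fold changes rest on few reads, and the Acta2GFP group rests on 9 and 11 cells.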

Other observations

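The 4 cluster 8 cells of Cspg4dsRED that had no cluster 7 cell of their line on the plate were read for the leading genes. All 4 held no read of 12 of the 15 leading cluster 7 genes and of 5 of the 15 leading cluster 8 genes, which with 4 cells says little about either. Cilp, the matrix gene with the largest fold change, was at 484.6 in the lowest of them, with a median of 1466 and a highest value of 3339 reads per 500000. The mean of Cilp over the 4 cells was 1689, while its means in the other cluster 8 groups reached at most 769. These cells come from 1 plate and carry no test.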
